A study of Mus musculus with 51 samples.

Results

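The comparison described here sets sorted against unsorted primary mammary tumors of Wap-Cre;Etv6-NTRK3 mice. Its members were chosen by sample title: 8 arrays of sorted primary tumors and 23 arrays of unsorted primary tumors, 31 of the 51 arrays of the series. In these mice the Wap promoter, active in the milk-producing epithelium, drives Cre recombinase. Cre turns on a conditional Etv6-NTRK3 knock-in allele and a lacZ reporter, floxed and placed at Rosa26, so that recombined cells carry a lasting lacZ mark. The sorted samples are cells isolated from tumors by that mark. The unsorted samples are whole, unfractionated tumors of the same model and therefore hold stroma, vessels and leukocytes as well. The 8 sorted tumors came from 6 mice, 3 of them from 1 mouse. The 23 unsorted arrays measured 22 tumors of 14 mice, because 1 tumor was measured on 2 arrays, which were averaged. No mouse gave both a sorted and an unsorted primary tumor, so differences between the groups cannot be told apart from differences between mice. Ages, and the way tumors were dissociated and cells sorted, are not given in the sources used here.

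Other groups of the series entered the limma fit described below and are otherwise used only as a setting for these tumors. They are 7 arrays of sorted and 4 of unsorted tumors grown in RAG2-/- recipients, which have no B or T cells of their own, 4 arrays of sorted hyperplastic mammary epithelial cells, and 5 arrays of unfractionated wild-type mammary gland. The tumor cells of all tumor groups carry the same fusion allele.

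ETV6-NTRK3 is a fusion of a transcription factor's oligomerization domain with the kinase domain of a neurotrophin receptor, and it signals through the RAS-MAPK and PI3K pathways. Immediate early genes such as Fos, Egr1 and Dusp1 need no new protein to be transcribed and can respond within minutes to growth factors, stress or loss of tissue contacts. Their products include the subunits of AP-1, a dimeric transcription factor made of Fos, Jun and related proteins. NF-kB is a second rapid system, and it induces its own inhibitors together with cytokines and chemokines. Heat shock genes encode chaperones that are induced by unfolded protein. Transcripts of this kind are also known to accumulate in many tissues while cells are dissociated with enzymes and sorted. Whether that applies to these tumors was not tested.

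Values are probe set intensities on a log2 scale with a floor at 5, and each gene is represented by 1 probe set. A gene was called when the adjusted p of the limma fit was under 0.05, with Benjamini-Hochberg adjustment over all 15150 genes tested. Differences are sorted minus unsorted on the log2 scale, so 1 is a doubling, and they are followed by their standard error. P-values given with them are the adjusted values of that fit. Sorted tumors were higher than unsorted tumors for 1458 genes, 9.62% of those tested, and lower for 2374 genes, 15.7%. The median difference over all genes was -0.05. In bulk samples such as these, fewer cells of a type and less RNA per cell cannot be told apart.

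Control probe sets differed between the groups as well. Over 6 mice against 14 mice, the log2 ratio of the 3' to the 5' Gapdh control, a measure of RNA integrity, averaged -0.11 in sorted and 0.17 in unsorted tumors (exact permutation test, two-sided, adjusted p = 0.0305 over 7 measures). The same ratio for Actb averaged 0.31 in sorted and 0.59 in unsorted tumors (exact permutation test, adjusted p = 0.049). The 18S control averaged 5.73 in sorted and 5.30 in unsorted tumors on the log2 scale (exact permutation test, adjusted p = 0.035). Within the sorted group the Gapdh ratio lay between -0.36 and -0.11 in replicates 1 to 4, from 4 mice, and between -0.01 and 0.10 in replicates 5 to 8, from 2 mice. The spike-in controls BioB and BioC separated the same arrays, with 9.03 to 10.16 in replicates 1 to 4 and 8.08 to 8.46 in replicates 5 to 8. For Tfrc the 3' to 5' ratio averaged 2.03 in sorted and 2.15 in unsorted tumors (exact permutation test, adjusted p = 0.539). It split the sorted arrays the other way from Gapdh, with 1.84 to 2.70 in replicates 1 to 4 and 0.88 to 1.62 in replicates 5 to 8. These ratios thus give no common order of RNA integrity among sorted tumors. What causes these differences was not tested. Over all genes, replicates 1 to 4 alone gave 1921 genes called higher and 2361 lower, and replicates 5 to 8 alone gave 633 higher and 910 lower. Counts for the main gene lists under each set are to be read against these totals. Sorted tumors correlated with each other at a median r of 0.893 over genes and unsorted tumors at 0.924, against 0.887 between the groups.

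The largest differences were rises of early response genes in sorted tumors. Of the 12 largest called rises, 8 were members of the AP-1, immediate early, NF-kB or heat shock lists. The range over the 8 sorted tumors lay above that of all 22 unsorted tumors for 10 of these 12 genes. All 12 were also called higher in sorted than in unsorted transplanted tumors. Among all genes tested, 52 (0.343%) had sorted tumors wholly above unsorted ones, and 27 of these 52 belonged to the same 4 lists, which together had 63 tested genes.

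Promoters of 4 of these genes are shown because they carry the binding motifs by which such early genes are commonly described, so that the sequences can be read beside the values. Each is the 300 bases from 250 before to 50 after the annotated gene start, from RefSeq on GRCm38.p6, written 5′ to 3′ along the gene, with the matched motif in capitals. Cxcl2 and Cxcl1, which encode neutrophil-attracting chemokines, are neighbours on chromosome 5 and each hold a pair of overlapping matches to the NF-kB consensus, which begin 97 and 96 bases before the start in Cxcl2 and 71 and 70 bases before it in Cxcl1. In Dusp1, which encodes a nuclear phosphatase of MAP kinases, the capitals mark the cAMP response element TGACGTCA, 143 bases before the start. In Zfp36, whose product tristetraprolin promotes decay of cytokine mRNAs, they mark a CArG box, the motif bound by serum response factor, 58 bases before the start.
Cxcl2 (chr5:90903649-90903948, plus strand): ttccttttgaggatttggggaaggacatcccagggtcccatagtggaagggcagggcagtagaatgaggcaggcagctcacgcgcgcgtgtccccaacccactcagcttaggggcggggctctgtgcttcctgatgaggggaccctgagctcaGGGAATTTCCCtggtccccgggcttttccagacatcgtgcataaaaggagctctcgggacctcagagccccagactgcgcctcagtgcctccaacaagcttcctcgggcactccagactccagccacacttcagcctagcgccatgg
Cxcl1 (chr5:90890995-90891294, plus strand): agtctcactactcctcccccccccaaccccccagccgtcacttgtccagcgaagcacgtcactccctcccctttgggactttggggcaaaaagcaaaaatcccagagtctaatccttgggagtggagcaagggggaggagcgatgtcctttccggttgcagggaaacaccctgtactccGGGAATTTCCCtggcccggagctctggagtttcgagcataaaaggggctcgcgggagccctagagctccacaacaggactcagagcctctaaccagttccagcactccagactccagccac
Dusp1 (chr17:26508423-26508722, minus strand): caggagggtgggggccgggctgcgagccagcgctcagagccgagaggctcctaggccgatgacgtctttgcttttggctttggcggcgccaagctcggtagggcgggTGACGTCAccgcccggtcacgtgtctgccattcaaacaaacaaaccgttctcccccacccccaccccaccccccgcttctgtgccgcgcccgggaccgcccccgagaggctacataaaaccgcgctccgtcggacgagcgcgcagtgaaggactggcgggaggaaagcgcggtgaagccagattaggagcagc
Zfp36 (chr7:28379179-28379478, minus strand): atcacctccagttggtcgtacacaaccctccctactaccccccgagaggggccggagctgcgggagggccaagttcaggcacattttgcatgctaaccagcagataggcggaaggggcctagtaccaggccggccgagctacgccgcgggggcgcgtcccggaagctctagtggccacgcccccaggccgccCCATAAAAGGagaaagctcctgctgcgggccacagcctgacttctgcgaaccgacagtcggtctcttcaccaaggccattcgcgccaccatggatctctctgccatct

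Windows were found for 14 of the 18 tested genes of the NF-kB and cytokine list, 20 of the 24 of the immediate early list, 7 of the 8 AP-1 genes and 10 of the 13 heat shock genes. Both strands were searched. An NF-kB consensus match stood in the windows of 10 of the 14 NF-kB list genes, 3 of the 7 AP-1 genes, 4 of the 10 heat shock genes and 4 of the 20 immediate early genes, against 12.3% of the 12077 tested genes that have a window and 8.46% of all 32851 windows. The 4 heat shock genes were Hspa1a, Hspa1b, Hspd1 and Hspe1. Hspa1a and Hspa1b hold the same match, 133 bases before the start, and so do not count as independent windows. Whether windows of other genes overlap, such as those of Hspd1 and Hspe1, was not checked. Gene counts given here may therefore exceed the number of separate promoters. The element TGACGTCA stood in those of 4 of the 20 immediate early genes (Btg2, Dusp1, Maff and Ppp1r15a), against 3.11% of tested genes and 1.79% of all windows. A CArG box stood in those of Egr2 and Zfp36 among the 20, against 1.6% of tested genes and 1.63% of all windows. The AP-1 site TGANTCA stood in those of 4 of the 14 NF-kB list genes and 1 of the 20 immediate early genes, against 7.14% of tested genes and 7.81% of all windows. The heat shock element stood in those of Hspd1, Hspe1 and Hsph1 among the 10 heat shock genes, against 0.563% of tested genes and 0.603% of all windows. Of these, Hsph1 was called higher, and Hspd1 and Hspe1 were not called. A match is a run of letters and no measured site.

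All 8 AP-1 subunit genes were called higher, with a median difference of 2.63. The list level, the mean log2 intensity of the members on an array, was 10.31 to 11.18 in sorted and 7.54 to 8.94 in unsorted tumors, with no overlap. Fos, the founding subunit, had a lowest, median and highest log2 intensity of 12.44, 12.61 and 12.98 in sorted tumors, and of 7.03, 8.86 and 10.60 in unsorted tumors. The difference was 3.62 ± 0.35 (limma, adjusted p = 7.01e-11), and every sorted tumor stood above every unsorted one. Fosb, a close relative of Fos, had 9.39, 10.04 and 11.48 in sorted tumors, and 5.10, 6.00 and 6.83 in unsorted tumors. Its difference was 4.29 ± 0.24 (limma, adjusted p = 1.41e-18). The sorted values for Fosb begin above the highest unsorted value by more than the whole unsorted range.

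Atf3, a stress-induced partner of Jun proteins, had 10.92, 11.51 and 12.02 in sorted tumors, and 5.89, 8.12 and 9.13 in unsorted tumors. Its difference was 3.68 ± 0.33 (limma, adjusted p = 1.32e-11). Fosl1 had a median of 8.18 in sorted tumors and was at the floor in 15 of 22 unsorted tumors, with overlapping ranges. The Jun genes moved less. Jun had 9.67, 10.56 and 10.92 in sorted tumors, and 7.19, 8.57 and 9.27 in unsorted tumors, a difference of 1.99 ± 0.20 (limma, adjusted p = 3.97e-10). Junb differed by 2.34, Fosl2 by 1.30 and Jund by 0.53. Jund, the most constitutively expressed of the family, thus had the smallest difference, and its ranges overlapped.

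**Figure D1:**
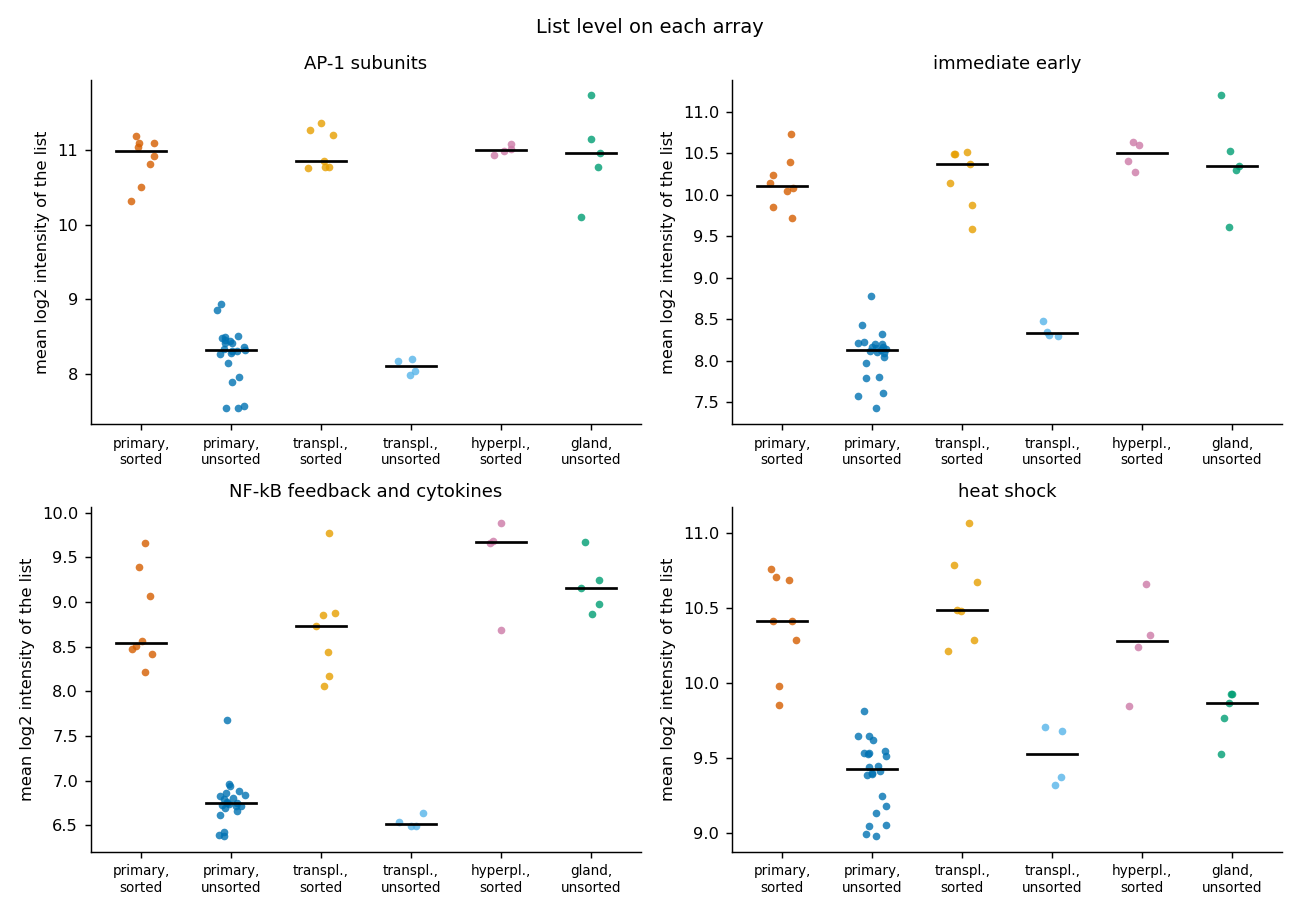
Mean log2 intensity of the AP-1, immediate early, NF-kB and heat shock lists on each array (points) with group medians (bars), for sorted and unsorted primary tumors, sorted and unsorted transplanted tumors, sorted hyperplasia and unfractionated wild-type gland. On all 4 lists the 8 sorted primary tumors lie above the 22 unsorted ones, for AP-1 at 10.31 to 11.18 against 7.54 to 8.94.

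Of 24 tested immediate early genes, 21 were called higher and none lower, with a median difference of 2.28 over the list. The list level was 9.72 to 10.73 in sorted and 7.42 to 8.78 in unsorted tumors. Dusp1 had 11.63, 11.89 and 12.54 in sorted tumors, and 5.23, 7.44 and 10.28 in unsorted tumors. The difference was 4.56 ± 0.34 (limma, adjusted p = 1.53e-14), the second largest rise by the naming rule. The nuclear receptor gene Nr4a3 had 6.70, 9.33 and 10.39 in sorted tumors, while 20 of 22 unsorted tumors were at the floor and the highest reached 5.70. Its difference was 3.87 ± 0.27 (limma, adjusted p = 1.17e-15), and its 2 other probe sets were not called.

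Zfp36 had 10.04, 11.12 and 11.60 in sorted tumors, and 7.27, 8.08 and 9.59 in unsorted tumors. Its difference was 2.90 ± 0.27 (limma, adjusted p = 1.52e-11), with no overlap. Klf4, a zinc finger transcription factor of epithelia, differed by 2.95 ± 0.43 (limma, adjusted p = 1.92e-06), with overlapping ranges. Egr1, a zinc finger factor induced by ERK signalling, had 11.41, 12.05 and 12.81 in sorted tumors, and 7.65, 9.63 and 11.37 in unsorted tumors, a difference of 2.17 ± 0.35. The members not called were Myc, Ier2 and Nr4a2, with differences of -0.24, 0.45 and 0.16. The response was thus not shared by every gene of the list: Myc had a median of 8.63 in sorted and 8.69 in unsorted tumors.

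The other 4 of the 12 largest rises lay outside these lists and were genes of signalling. Hbegf, a membrane-bound ligand of the EGF receptor, had 9.15, 11.41 and 11.88 in sorted tumors, and 5.00, 7.03 and 8.77 in unsorted tumors. Its difference was 3.80 ± 0.39 (limma, adjusted p = 3.95e-10). Dusp5, a nuclear phosphatase of ERK, had 8.44, 10.11 and 11.38 in sorted tumors, and 5.33, 6.38 and 8.37 in unsorted tumors, a difference of 3.69 ± 0.34. Neither gene's ranges overlapped. Ptgs2, the inducible cyclooxygenase, was at the floor in 18 of 22 unsorted tumors and at 7.36 to 10.75 in sorted ones. It differed by 3.68 ± 0.38, and 6 of the 8 sorted tumors lay above every unsorted one. Rgs1, a regulator of G protein signalling known from leukocytes, differed by 3.59 ± 0.47 (limma, adjusted p = 1.63e-07) and overlapped too.

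NF-kB feedback genes and cytokines rose with them: 14 of 18 tested members were called higher and none lower, with a median difference of 2.16. The list level was 8.22 to 9.66 in sorted and 6.38 to 7.68 in unsorted tumors. Cxcl2 had the largest rise by the naming rule. It lay at 9.74, 11.32 and 12.53 in sorted tumors, while 17 of 22 unsorted tumors were at the floor and the highest reached 9.64. The difference was 5.60 ± 0.40 (limma, adjusted p = 5.51e-15), between 4.22 and 6.18 over the 35 alternatives tried. Cxcl1 had 11.02, 12.48 and 13.05 in sorted tumors, and 7.48, 8.75 and 12.40 in unsorted tumors, a difference of 3.15 ± 0.36, and 5 of the 8 sorted tumors lay above every unsorted one.

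The inhibitors that NF-kB induces moved in the same direction. Nfkbiz, a nuclear IkB protein, had 10.13, 11.16 and 11.85 in sorted tumors, and 6.30, 7.24 and 8.82 in unsorted tumors. Its difference was 3.58 ± 0.24 (limma, adjusted p = 5.32e-16), and its 2 other probe sets were called higher too. Tnfaip3, the ubiquitin-editing enzyme A20, differed by 3.31 ± 0.32 and Nfkbia, the classical IkB protein, by 2.38 ± 0.16, both with no overlap. Among cytokines, Il1b differed by 2.95, Il6 by 2.67, Ccl2 by 2.40 and Tnf by 1.91. The unsorted median was at the floor for Il6 and Tnf, so their differences depend on that floor. The subunit genes Rel and Nfkb2 were not called, with differences of 0.23 and 0.25, whereas Relb was called at 0.86.

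The heat shock list divided into a responding and a steady set. Of 13 tested members 7 were called higher and none lower, and the median difference was 0.49. Hspa1a, an inducible Hsp70, had 10.09, 11.46 and 12.40 in sorted tumors, and 6.31, 7.16 and 7.84 in unsorted tumors. Its difference was 4.37 ± 0.25 (limma, adjusted p = 1.53e-18). Hspa1b differed by 2.13 ± 0.18, but both genes encode nearly identical transcripts and the signal of one probe set may come from either. Their co-chaperone Dnajb1 had 9.29, 10.66 and 11.40 in sorted tumors, and 7.49, 8.50 and 8.97 in unsorted tumors, a difference of 2.30 ± 0.25 with no overlap. The constitutive chaperones Hspa8 and Hsp90aa1 were not called, at 0.23 and 0.19.

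The AP-1, immediate early and NF-kB lists were high in other arrays of the series as well. The AP-1 list level was 10.93 to 11.07 in sorted hyperplasia and had a median of 10.96 in unfractionated wild-type gland, close to the median of 10.98 in sorted primary tumors. The immediate early list had a median of 10.50 in hyperplasia and 10.35 in gland, and the NF-kB list had 9.67 in hyperplasia and 9.16 in gland. High levels of these 3 lists thus also stood on the gland arrays, which the labels call unsorted. The gland is another tissue, of wild-type mice, and what raised the lists in any group was not tested. The heat shock list differed from them, with 9.85 to 10.66 in hyperplasia but 9.53 to 9.93 in gland, which overlaps the 8.98 to 9.81 of unsorted tumors. The unsorted primary and transplanted tumors had the lowest levels of all groups, with an AP-1 list level of 7.54 to 8.94 and 7.99 to 8.20.

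**Figure D2:**
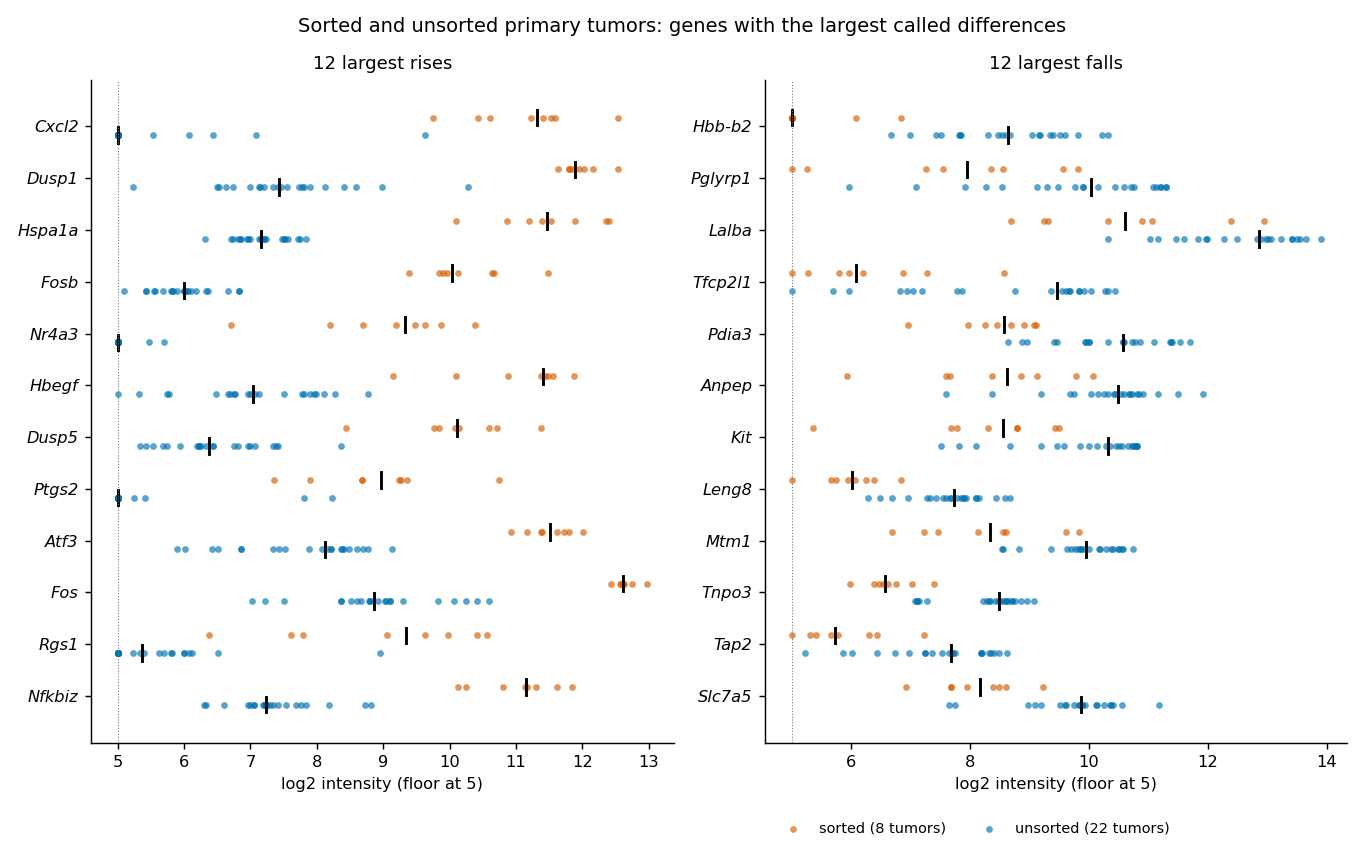
Log2 intensity of the 12 genes with the largest called rises and the 12 with the largest called falls, in 8 sorted tumors (upper, orange) and 22 unsorted tumors (lower, blue); points are tumors, black ticks medians, and the dotted line is the floor at 5. Sorted and unsorted tumors do not overlap for 10 of the 12 rises, and they overlap for all 12 falls.

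RAS-MAPK feedback genes, which report on signalling downstream of receptor kinases, were mixed. Of 11 tested members 3 were called higher and 1 lower. The higher ones were Dusp5, Spry2 and Phlda1, the lower one Etv5. Spry2, a Sprouty inhibitor of receptor kinase signalling, had 9.31, 9.97 and 10.15 in sorted tumors, and 7.25, 8.34 and 8.93 in unsorted tumors, a difference of 1.52 ± 0.20 (limma, adjusted p = 1.53e-07). Etv5, an ETS factor, differed by -0.84 ± 0.32 (limma, adjusted p = 0.043), a call lost under 20 of 35 alternatives. Dusp4, Dusp6, Spry1, Spry4, Spred1, Spred2 and Etv4 were not called, with differences between -0.50 and 0.59. Of the fusion partners, Etv6 differed by -0.38 ± 0.22 and Ntrk3 by -0.33 ± 0.21, neither called (adjusted p = 0.203 and 0.255). Whether their probe sets read the fusion transcript is not known, so they check nothing about the allele.

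Among paracrine ligands 7 of 23 were called higher and 2 lower. Besides Hbegf these were Cxcl12, a chemokine often made by stroma, at 2.23 ± 0.50, the macrophage growth factor Csf1 at 1.46 ± 0.27, Tgfa at 1.15 ± 0.36, Vegfa at 1.00 ± 0.33, Cxcl16 at 0.74 ± 0.22 and Btc at 0.58 ± 0.19. Hbegf, Tgfa and Btc are all ligands of the EGF receptor. The lower ones were Tgfb1 and Tgfb3, at -0.61 and -1.05. Csf1 had 7.83, 8.35 and 9.42 in sorted tumors, and 6.52, 7.26 and 8.06 in unsorted tumors. The receptors Csf1r and Pdgfra were called higher and Kit and Erbb2 lower, out of 18 receptor genes tested. Igf2, an insulin-like growth factor, was not called, with a difference of -0.50 ± 0.49.

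The labelled cell type was checked against marker genes. The 7 luminal markers had a mean level of 10.19 to 11.57 in sorted and 10.95 to 12.04 in unsorted tumors, high in both groups. The 3 pan-leukocyte markers had a mean level of 6.24 to 10.52 in sorted and 6.31 to 8.82 in unsorted tumors, so the sorted samples held leukocyte transcripts too. No member of the macrophage, MHC class II, fibroblast, T cell, B cell, endothelial or adipocyte lists was called lower, against 15.7% of all genes. The pericyte list had 1 of 8 called lower. In unsorted tumors the T cell, B cell, endothelial and adipocyte lists averaged 5.80, 5.86, 6.15 and 6.46. With the floor at 5, these 4 lists had little room to fall. Of 20 macrophage genes 9 were called higher, against 9.62% of all genes, and the list median was 0.99. Csf1r, the receptor for Csf1, had 8.20, 11.38 and 12.75 in sorted tumors, and 7.96, 9.29 and 10.21 in unsorted tumors. Its difference was 1.96 ± 0.50 (limma, adjusted p = 0.00315). The mannose receptor gene Mrc1 had 7.03, 8.41 and 11.18 in sorted tumors, and 5.36, 6.22 and 9.63 in unsorted tumors, a difference of 2.28 ± 0.53. Adgre1, which encodes a macrophage surface receptor, differed by 1.27 ± 0.34. The ranges of all 3 genes overlapped, because some sorted tumors were as low as unsorted ones.

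The macrophage list level was 9.13, 10.22, 10.19 and 10.57 in sorted replicates 1 to 4. It was 9.28, 7.97, 8.16 and 6.95 in sorted replicates 5 to 8, against 7.17 to 9.31 in unsorted tumors. The highest macrophage levels, in replicates 2 to 4, thus lay on arrays with a low Gapdh ratio and a high spike-in signal. Replicate 5 departed from this: its 9.28 exceeded the 9.13 of replicate 1, at a Gapdh ratio of 0.105 and a spike-in level of 8.125. With only sorted replicates 1 to 4, all 20 macrophage genes were called higher. With only replicates 5 to 8, none was, in a fit that rests on fewer sorted mice and called fewer genes overall (633 higher, against 1921 with replicates 1 to 4). Replicates 1 to 4 came from 4 mice and replicates 5 to 8 from 2, so mouse, array controls and macrophage level cannot be told apart here. Sorted hyperplasia had a macrophage level as high, with a median of 10.48.

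**Figure D3:**
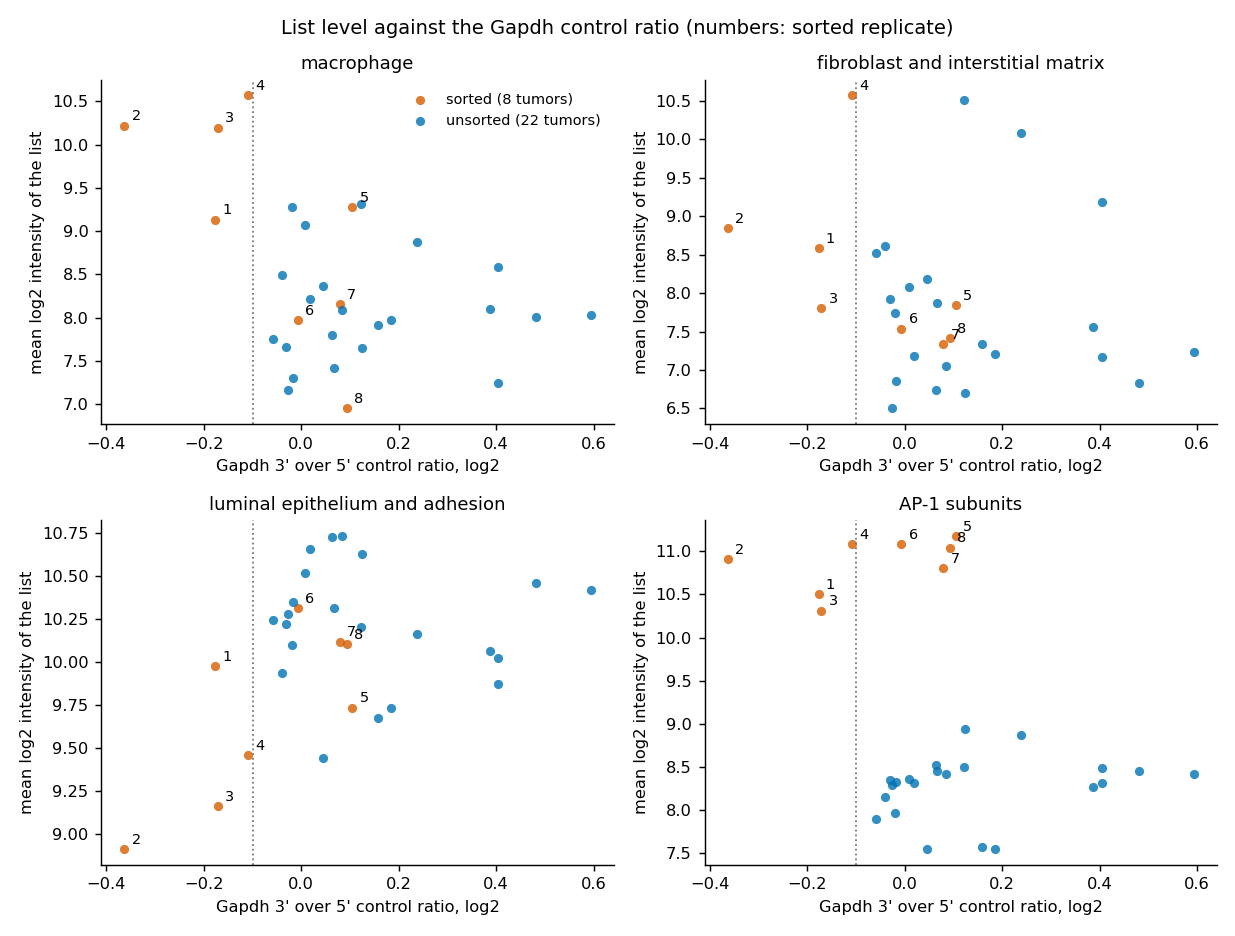
Mean log2 intensity of the macrophage, fibroblast, luminal and AP-1 lists against the log2 ratio of the 3' to the 5' Gapdh control, for 8 sorted tumors (orange, numbered by replicate) and 22 unsorted tumors (blue); the dotted line is at -0.1. Sorted replicates 1 to 4 lie left of the line, with macrophage levels of 9.13 to 10.57, whereas their AP-1 levels of 10.31 to 11.09 lie close to the 10.81 to 11.18 of replicates 5 to 8.

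MHC class II genes, which present peptides to T cells, had 3 of 8 tested members called higher: H2-Eb1 at 1.65 ± 0.50, H2-DMa at 1.56 ± 0.41 and H2-Aa at 1.39 ± 0.51. The H2-Aa call was lost under 14 of 35 alternatives. With sorted replicates 1 to 4 alone 5 were called, and with replicates 5 to 8 none. Of 24 fibroblast and matrix genes 4 were called higher: Dpt, Pdgfra, Col5a2 and Col14a1. Dpt, which encodes dermatopontin, had 6.07, 6.47 and 10.90 in sorted tumors, and 5.00, 5.30 and 9.12 in unsorted tumors, a difference of 1.66 ± 0.52 (limma, adjusted p = 0.0152). Pdgfra, the receptor that marks many fibroblasts, had 5.70, 6.34 and 9.28 in sorted tumors, and 5.00, 5.25 and 7.74 in unsorted tumors. Its difference was 1.36 ± 0.33 (limma, adjusted p = 0.0018).

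For both genes the highest value belonged to sorted replicate 4, whose fibroblast list level of 10.57 stood above the 7.34 to 8.85 of the other sorted tumors and above the 6.50 to 10.51 of the unsorted ones. Col1a1, the chain of the main interstitial collagen, was not called, with 7.68, 8.76 and 11.71 in sorted tumors and 6.25, 8.31 and 12.42 in unsorted tumors. The levels of this collagen thus spread widely within both groups. With sorted replicates 1 to 4 alone 9 fibroblast genes were called higher, and with replicates 5 to 8 none.

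Vessel and lymphocyte transcripts were low in both groups. Of 21 endothelial genes only Selp was called, at 0.95 ± 0.37 (limma, adjusted p = 0.0488), and that call was lost under 29 of 35 alternatives. With sorted replicates 1 to 4 alone 3 endothelial genes were called higher and none lower, in a fit that called 1921 of 15150 genes higher. With replicates 5 to 8 alone none was called higher and 2 lower, in a fit that called 910 of 15150 lower. Calls this few, set beside those totals, show no direction of the list. Pecam1 was at the floor in all 8 sorted tumors and in 20 of 22 unsorted tumors. The endothelial list level was 5.55 to 6.74 in sorted and 5.83 to 7.26 in unsorted tumors, with the floor at 5. None of 14 T and NK cell genes was called, and their list level was 5.56 to 6.17 in sorted and 5.61 to 6.12 in unsorted tumors. Levels this close to the floor limit what these arrays can show of vessels and T cells. The pericyte list had 1 of 8 members called lower, the potassium channel gene Kcnj8 at -1.39 ± 0.34. Of the pan-leukocyte markers, Ptprc had a difference of 1.18 ± 0.50 (adjusted p = 0.0735), while Cd53 was called at 1.69 ± 0.50.

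A globin and a granule protein gene gave the 2 largest falls. Hbb-b2, a beta globin, was at the floor in 6 of 8 sorted tumors and at 6.67 to 10.32 in unsorted tumors, with a difference of -2.92 ± 0.46 (limma, adjusted p = 6.15e-06). Beta globin genes are near copies of each other, another probe set for it was not called, and none of the 3 tested genes of the erythroid list was called. Pglyrp1, a peptidoglycan-binding protein of neutrophil granules and epithelia, had 5.00, 7.95 and 9.82 in sorted tumors, and 5.96, 10.03 and 11.29 in unsorted tumors. Its difference of -2.67 ± 0.63 was not called with sorted replicates 5 to 8 alone. The neutrophil list had 1 member called higher and 2 lower of 14, so it showed no common direction. With replicates 1 to 4 alone 3 were called higher and 2 lower, and with replicates 5 to 8 none in either direction.

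Epithelial identity genes were mostly lower or not called in sorted tumors. The luminal keratins Krt8 and Krt18 had medians of 12.37 and 12.11 in sorted tumors and of 12.34 and 12.27 in unsorted tumors, and neither was called, with differences of -0.29 ± 0.22 and -0.30 ± 0.24. Of 19 tested luminal and adhesion genes 9 were called lower, against 15.7% of all genes, and 1 higher, with a list median of -0.69. The lower genes were Ehf, Krt19, Muc1, Cldn7, Rab25, Cldn3, Spint2, Esrp1 and Epcam. Epcam, the adhesion protein by which epithelial cells are often sorted, had 9.82, 11.83 and 12.43 in sorted tumors, and 11.47, 12.26 and 12.99 in unsorted tumors. Its difference was -0.69 ± 0.23 (limma, adjusted p = 0.0218). The exception was the tight junction gene Cldn4, with 9.51, 10.18 and 11.23 in sorted tumors, and 7.01, 8.31 and 11.03 in unsorted tumors, a difference of 1.87 ± 0.50.

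The luminal falls also followed the split among sorted arrays. The luminal list level was 8.91 to 9.98 in sorted replicates 1 to 4 and 9.74 to 10.31 in replicates 5 to 8, against 9.44 to 10.73 in unsorted tumors. With replicates 1 to 4 alone 11 members were called lower, and with replicates 5 to 8 alone 1. Epcam then had a difference of 0.01, so its fall was not seen with those sorted tumors. Ehf, an epithelial ETS factor with a difference of -1.63 ± 0.40, was not called by its 3 other probe sets.

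Genes of luminal progenitors and of milk production were mostly not called. Kit, the receptor of luminal progenitors, had 5.37, 8.55 and 9.49 in sorted tumors, and 7.51, 10.31 and 10.81 in unsorted tumors, a difference of -1.92 ± 0.45 (limma, adjusted p = 0.00125). Elf5, an ETS factor needed for alveolar cells, differed by -1.40 ± 0.40. The calls of Kit and Elf5 were lost with sorted replicates 5 to 8 alone, and that of Elf5 also without replicate 2. With replicates 1 to 4 alone 3 of the 6 progenitor genes were called lower. Cd14, a pattern recognition co-receptor listed with the progenitor genes but also made by macrophages, differed by 1.62 ± 0.32 with no overlap. Of 13 milk and alveolar genes only Lalba was called. Lalba, the regulatory subunit of lactose synthase, had 8.69, 10.61 and 12.94 in sorted tumors, and 10.32, 12.85 and 13.90 in unsorted tumors, a difference of -2.34 ± 0.57 (limma, adjusted p = 0.00188). The caseins stayed near the top of the scale: Csn2 had a median of 13.34 in sorted and 13.45 in unsorted tumors. Wap, whose promoter drives Cre, had a median of 7.16 in sorted and 7.24 in unsorted tumors and was not called.

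Foxa1, a pioneer factor of hormone-sensing luminal cells, was the single called member of its list of 8. It had 7.41, 9.13 and 9.62 in sorted tumors, and 5.00, 7.07 and 8.17 in unsorted tumors, a difference of 2.22 ± 0.41 (limma, adjusted p = 8.18e-05). Esr1, the oestrogen receptor gene of the same cells, was not called at 0.27 ± 0.26. The basal keratins Krt5 and Krt14 were not called, with differences of 0.64 ± 0.76 and 0.82 ± 0.47. Krt5 spanned 5.89 to 12.29 in sorted tumors and 5.71 to 11.45 in unsorted tumors, a spread far wider than the difference between groups. None of 10 myoepithelial contractile genes was called.

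Genes of proliferation were lower in sorted tumors. Of 27 tested cell cycle genes 17 were called lower and none higher, with a median difference of -0.84. The list level was 7.56 to 8.09 in sorted tumors, a narrow band, and 7.20 to 9.19 in unsorted tumors. Mki67, the gene of the Ki-67 antigen, had 7.30, 8.50 and 8.89 in sorted tumors, and 8.16, 9.65 and 10.20 in unsorted tumors. Its difference was -1.32 ± 0.26 (limma, adjusted p = 0.000217). Ube2c, a ubiquitin-conjugating enzyme of mitotic exit, differed by -1.42 ± 0.28 and the mitotic kinase Aurka by -1.41 ± 0.20 (limma, adjusted p = 7.78e-07). Top2a, the topoisomerase of dividing cells, differed by -1.32 ± 0.30. Among genes of replication, Mcm6, Mcm7, Mcm2 and Tk1 were called lower, while Mcm3, Mcm4, Mcm5, Pcna and Rrm2 were not. Between 10 and 21 members were called lower over the alternatives, 10 of them with sorted replicates 5 to 8 alone.

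Housekeeping machinery fell by smaller amounts. Of 20 proteasome subunits 17 were called lower, with a median of -0.56 and a list level of 8.68 to 9.87 in sorted and 9.81 to 10.38 in unsorted tumors. Psmb7, a catalytic subunit, had 8.10, 9.97 and 10.31 in sorted tumors, and 10.09, 10.77 and 11.33 in unsorted tumors, a difference of -1.12 ± 0.20 (limma, adjusted p = 3.93e-05). Of 20 oxidative phosphorylation genes 11 were called lower, among them Atp5c1 at -0.84 ± 0.17 and Uqcrc1 at -0.75 ± 0.14. Of 20 mitochondrial ribosomal genes 10 were called lower, among them Mrps5 at -0.99 ± 0.20 and Mrps7 at -0.98 ± 0.15. No member of these 3 lists was called higher. With sorted replicates 1 to 4 alone, 18 proteasome, 12 oxidative phosphorylation and 7 mitochondrial ribosomal genes were called lower. With replicates 5 to 8 alone the counts were 5, 1 and 6, in a fit that called 910 genes lower in all, against 2361 with replicates 1 to 4.

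Secretory pathway genes were mixed. Of 15 endoplasmic reticulum chaperones and regulators 6 were called lower and 3 higher. With replicates 1 to 4 alone 7 were called lower, and with replicates 5 to 8 alone 1. Pdia3, a protein disulfide isomerase, had 6.96, 8.57 and 9.12 in sorted tumors, and 8.64, 10.57 and 11.70 in unsorted tumors, a difference of -2.06 ± 0.31 (limma, adjusted p = 3.11e-06), but its other probe set was not called. Dnajb9, a co-chaperone induced by unfolded protein, differed by 1.01 ± 0.16 (limma, adjusted p = 3.87e-06). Hspa5, the main chaperone of the compartment, was not called at 0.36 ± 0.18. In lipid synthesis, the desaturase genes Scd1 and Scd2 differed by -1.57 ± 0.39 and -1.07 ± 0.32, and the other 8 of 10 fatty acid genes were not called. With replicates 1 to 4 alone 4 fatty acid genes were called lower, and with replicates 5 to 8 none. Among genes of glucose use and hypoxia 4 of 17 were called higher, with hexokinase Hk2 at 1.26 ± 0.33 and the glucose transporter Slc2a1 at 0.99 ± 0.28, and 3 were called lower.

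The remaining largest falls came from separate functions. Tnpo3, an import receptor for splicing factors, had 5.99, 6.58 and 7.39 in sorted tumors, and 7.07, 8.49 and 9.07 in unsorted tumors, a difference of -1.70 ± 0.22 (limma, adjusted p = 1.43e-07), and its 2 other probe sets were called lower too. Mtm1, a phosphoinositide phosphatase, differed by -1.75 ± 0.35, Slc7a5, a transporter of large amino acids, by -1.65 ± 0.39 and Leng8 by -1.79 ± 0.21. The epithelial factor Tfcp2l1 differed by -2.10 ± 0.57, the aminopeptidase Anpep by -1.95 ± 0.46 and the peptide transporter Tap2 by -1.67 ± 0.35. None of these genes separated the groups without overlap. Of the 49 genes (0.323%) for which every sorted tumor lay below every unsorted one, none belonged to any of the 43 lists. The lists hold only 558 of the 15150 genes tested, so this count says little about their functions.

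Interferon response genes spread widely within each group. Of 19 tested members 1 was called lower, Bst2 at -1.60 ± 0.36. The list level was 6.94 to 9.50 in sorted and 6.78 to 9.75 in unsorted tumors, but the medians were 7.58 and 8.73. The highest sorted level, 9.50, belonged to replicate 5, and replicate 6 was next at 8.16. With 1 mean per mouse, or without the mouse of 3 sorted tumors, 8 members were called lower. In transplanted tumors the same list had 7 members called higher and none lower, with a median difference of 1.52 against -0.79 in primary tumors. No member passed the test of the difference between these effects.

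**Figure D4:**
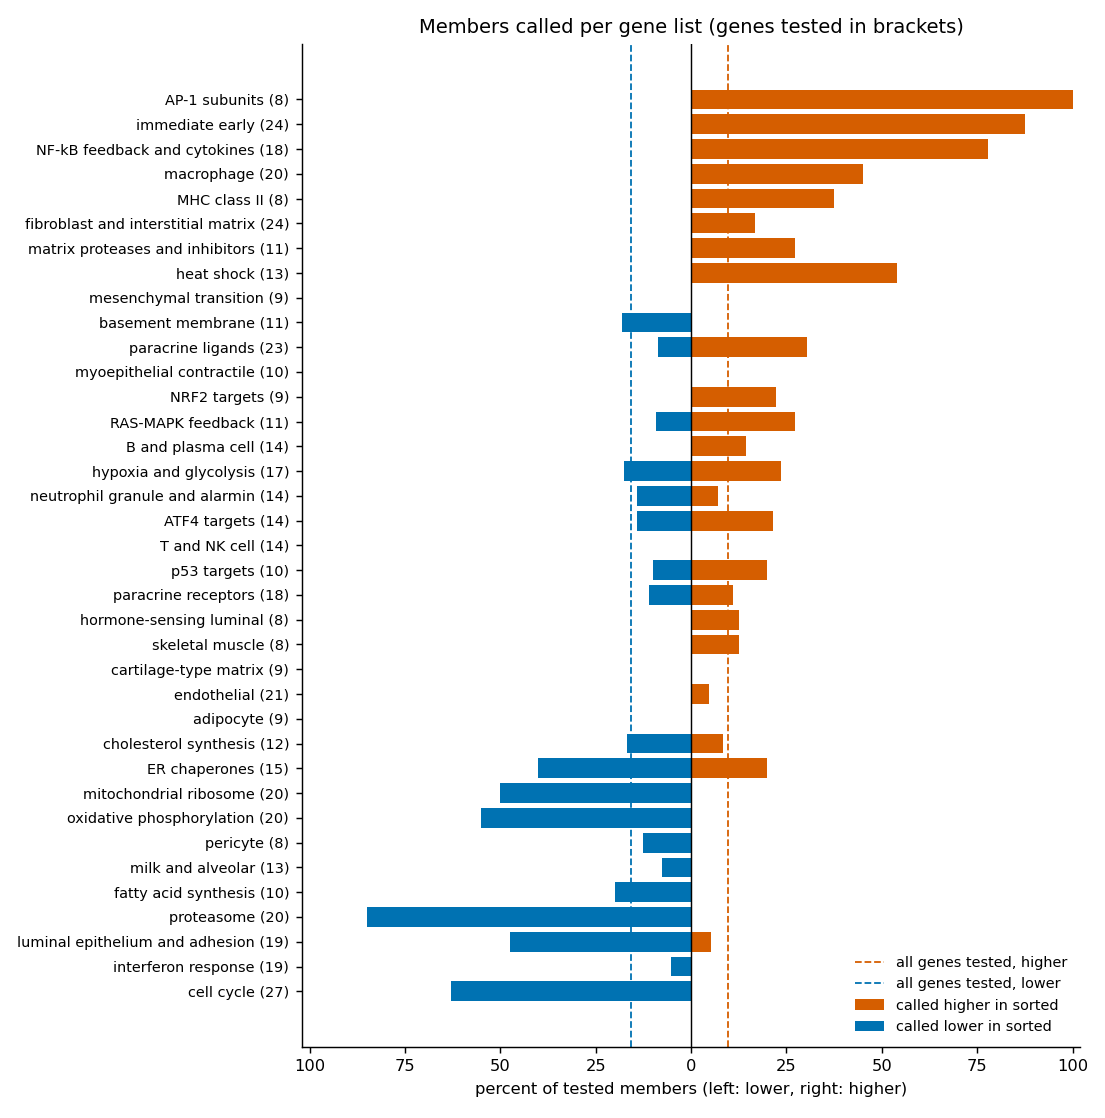
Percent of tested members called higher (orange, right) and lower (blue, left) in sorted than in unsorted tumors for each list with at least 8 tested genes, ordered by median difference; dashed lines mark 9.62% and 15.7%, the shares among all genes tested. AP-1, immediate early and NF-kB genes have the largest shares called higher, and proteasome and cell cycle genes the largest shares called lower.

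Sorted and unsorted samples can also be compared in transplanted tumors, on arrays outside the primary groups but in the same fit. Sorted transplanted tumors were higher than unsorted ones for 891 genes (5.88%) and lower for 1761 (11.6%). The fit shares its estimate of spread between both comparisons and links tumors of the same mouse. Some mice gave both primary and transplanted tumors, so the differences of the primary and transplanted comparisons are not independent. Of the genes called in primary tumors 572 of 1458 were also called higher and 1183 of 2374 also lower, and none was called in the opposite direction. Called higher in transplants were 7 of 8 AP-1 genes, 18 of 24 immediate early genes, 14 of 18 NF-kB genes and 8 of 13 heat shock genes. Of these lists 1 gene, Myc, was called lower there, at -1.08. Their list levels were separate there too, with AP-1 at 10.76 to 11.36 in sorted and 7.99 to 8.20 in unsorted transplants. The largest rises were Cxcl2 at 5.35, Fosb at 5.17, Dusp5 at 4.70, Nr4a3 at 4.48 and the chemokine Cxcl10 at 4.27. Of the cell cycle genes 13 of 27 were called lower. Of the macrophage genes 1 of 20 was called higher.

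**Figure D5:**
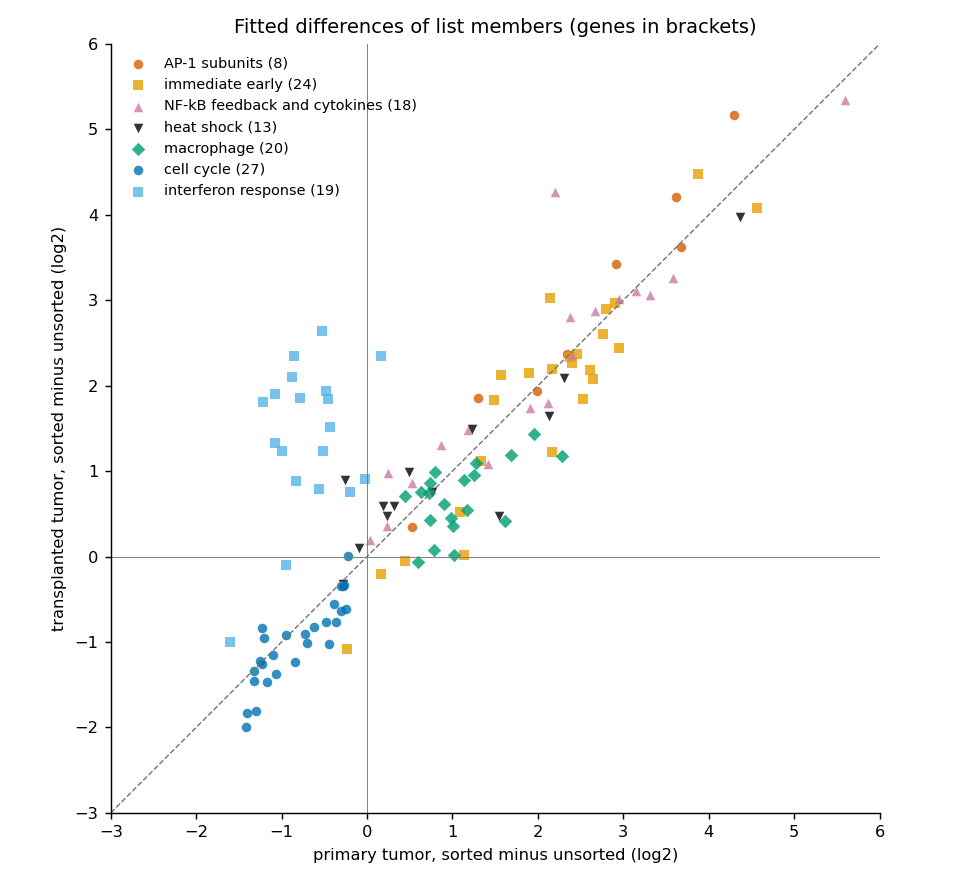
Fitted difference, sorted minus unsorted, in primary tumors (horizontal axis) and in transplanted tumors (vertical axis) on the log2 scale for members of 7 lists; the dashed line marks equal differences. AP-1, immediate early and NF-kB genes lie along the line, for example Cxcl2 at 5.60 and 5.35, while the interferon genes lie above it.

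A test of the difference between the effects in primary and transplanted tumors called 11 genes higher (0.0726%) and 2 lower (0.0132%), and 1192 genes had an unadjusted p under 0.05 (7.87%). None of the genes of the 43 lists was among those 13, but the lists hold only 558 of the 15150 genes tested. The neutral amino acid transporter gene Slc6a15 differed by 0.38 in primary and by -2.96 in transplanted tumors, a difference of effects of 3.33. Prmt1, an arginine methyltransferase, differed by -0.66 in primary and by -2.98 in transplanted tumors, and Lmo4, a LIM domain cofactor, by -0.38 in primary and -2.05 in transplanted tumors. Arsi differed by 0.25 in primary and -2.74 in transplanted tumors, and Reep1 by 0.18 in primary and -2.34 in transplanted tumors. In each of these 5 genes the difference was the lower one in transplants. Clca3a1 and Clca3a2, neighbouring genes of near-identical sequence, differed by -0.34 and -0.43 in primary and by 3.14 and 3.45 in transplanted tumors. Clca3a1 was at 8.62 to 10.63 in sorted primary replicates 1 to 4 and at 11.66 to 12.11 in replicates 5 to 8, against an unsorted primary median of 10.92. Clca3a2 was at 9.25 to 10.59 and at 12.53 to 12.95, against 11.52. Their primary differences thus average sorted tumors below and above the unsorted median. The unsorted transplants were 4 arrays from 2 mice, and the number of genes called for the difference of effects depended strongly on them.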

How the data were processed

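RNA of 51 mouse samples was measured on Affymetrix MOE430 2.0 arrays after Trizol extraction and column cleaning, per the labels' protocols. The authors deposited 1 linear intensity per probe set and array. Their summary and scaling method is not stated in the labels used here. The table holds 45101 probe sets, of which 64 controls and 1 with 2 values far above all others were left out of the gene tests. Intensities under 32, 37.4% of all values, were set to 32, and log2 values were taken from the deposited intensities.

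Probe sets were named through the platform annotation and RefSeq: 34944 had 1 symbol, 932 several and 9160 none. Each of 18192 genes was represented by its probe set with the highest mean, and 15150 genes passed a filter (above the 40th percentile on at least 4 arrays). Array medians lay at 46.1 to 56.4 in sorted and 42.9 to 53.7 in unsorted primary tumors. Precision is limited by the number of arrays. limma 3.58.1 in R 4.3.3 fitted 6 groups and 50 replicates, with mouse as a random block (correlation 0.358) and Benjamini-Hochberg adjustment over all genes tested. P-values of the fit set each difference against a spread estimated over all 6 groups, not over these tumors alone. With only the 2 groups compared, 1354 genes were called higher and 2086 lower. Control measures were tested by exact permutation over mouse means. The fit was first tested on simulated data. Tables were handled in Python 3.11.15 with pandas 2.3.3 and numpy 2.4.6, and figures were drawn with matplotlib 3.10.9.

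The members and the 43 gene lists were chosen with earlier results of these data known, so lists are described by counts, without a list test. Genes were named by a rule: the 12 largest called rises and falls among genes above the median level, at most 4 of the called genes in every list described, a set of fixed genes whatever their result, and the 5 largest rises and falls of the other comparisons. Alternatives changed the floor, normalization, probe set choice, filter, block, groups, weights and the samples included.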

Additional observations from a re-analysis of the deposited data

Results flagged for a closer look

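Among 8 sorted tumors, a single tumor stood apart from the others by Dixon's criterion in 15 of the 128 genes, 43 lists and 7 control measures checked; chance alone sets apart about 1 in 20 groups. Values are log2 intensities. Sorted replicate 4 was high for Pdgfra at 9.28, for the histamine-forming enzyme gene Hdc at 7.80, for the fibroblast list at 10.57 and for the matrix protease list at 8.77. Replicate 2 was low for Kit at 5.37, for the cholesterol synthesis gene Dhcr7 at 5.00, for the pericyte list at 6.53 and for the endoplasmic reticulum chaperone list at 9.18. Replicate 1 was low for the mitochondrial ATP synthase gene Atp5a1 at 10.51, for Psmb7 at 8.10 and for the proteasome list at 8.68. Replicate 8 was low for Hspa1b at 12.10, for the small heat shock protein gene Hspb1 at 10.48 and for the serine synthesis gene Psat1 at 5.08. Replicate 3 was low for the Schwann cell list at 7.29.

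The effect of sorting differed between primary and transplanted tumors, tested by limma as a difference of effects, for 7 genes named by the rule. The difference, primary minus transplanted, was 3.33 for Slc6a15, 2.99 for Arsi, 2.53 for Reep1, 2.33 for Prmt1, 1.67 for Lmo4, -3.88 for Clca3a2 and -3.48 for Clca3a1. The levels of both Clca3a genes were split between the sorted primary replicates, as given above.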

How the results depend on the processing

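With sorted tumors of a Gapdh ratio above -0.1 only, 633 genes were higher and 910 lower in sorted than in unsorted primary tumors. Epcam then had a difference of 0.01 and Fdft1 of 0.11, of the opposite sign but too small to give a direction. That setting also uses fewer tumors. Leaving out each sorted tumor gave 1139 (without replicate 4) to 1662 higher and 1748 (without replicate 2) to 2413 lower genes, and leaving out each unsorted mouse gave 1336 to 1488 and 2224 to 2530. Of 114 named genes called, 49 kept the call in all 35 alternatives, and 65 lost it in at least 1. In transplanted tumors a floor of 100 gave 524 higher genes, and no mouse block gave 1740 higher and 2698 lower. Leaving out each unsorted transplanted tumor gave 564 to 780 higher and 1212 to 1733 lower. For the difference of effects, genes higher numbered 5 with a floor of 16, 49 with a floor of 100, 20 with quantile normalization, 24 with the mean of probe sets, 6 with no filter and 138 with no mouse block, and genes lower numbered 0 with no filter and 68 with no mouse block. Leaving out each unsorted transplanted tumor gave 5 (without replicate 1) to 36 (without replicate 3) higher and 0 (without replicate 4) to 5 (without replicate 3) lower. Causes of these shifts were not tested. Signal close to the floor limits what can be said of vessels and lymphocytes. No paired analysis was possible because no mouse gave both a sorted and an unsorted primary tumor and the replicate numbers only name samples.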

Other observations

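Calls in smaller groups, for sorted against unsorted primary tumors, are to be read against 9.62% of all genes called higher and 15.7% called lower. Of 14 ATF4 target genes, which respond to amino acid shortage, 3 were called higher and 2 lower. Of 12 cholesterol synthesis genes 1 was called higher and 2 lower; 3 were lower with sorted replicates 1 to 4 alone and none with replicates 5 to 8. Of 9 NRF2 targets, which respond to oxidants, 2 were called higher, and of 10 p53 targets 2 were called higher and 1 lower. Of 11 basement membrane genes the perlecan gene Hspg2 and the laminin gene Lama5 were called lower; the Hspg2 call was lost under 15 of 35 alternatives. Of 11 matrix protease and inhibitor genes 3 were called higher, and none without the mouse of 3 sorted tumors. Of 14 B and plasma cell genes Pax5 and Tnfrsf17 were called higher by at most 0.37. The Pax5 call was lost under 9 of 35 alternatives and that of Tnfrsf17 under 26 of 34. Among 7 dendritic cell, 9 cartilage-type matrix and 9 mesenchymal transition genes none was called. The mast cell list of 5 had Hdc called higher, and the skeletal muscle list of 8 had Tnni2 called higher. Tnni2 was at 8.08 to 9.25 in sorted replicates 1 to 3 and at the floor in the other 5 sorted and all 22 unsorted tumors. Its call was lost with the Gapdh ratio as a covariate and with replicates 5 to 8 alone. The Schwann cell list of 3 had Mbp called higher and Sox10 lower. The basal list of 6 had Cdh3, the P-cadherin gene, called higher (adjusted p = 0.0491 by limma), a call lost under 23 of 35 alternatives.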
